A study of Mus musculus with 768 samples.

Results

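Mfap5-negative myelinating Schwann cells (Mfap5-negative mSCs) is the name used for Schwann cells (SCs) of the adult mouse sciatic nerve in which genes of myelinating SCs exceeded those of non-myelinating SCs and almost no reads came from Mfap5, a gene for a microfibril-associated matrix protein. The name is kept for all cells that met this rule on measured values, although not all stood out by their myelin genes. Summed compact myelin exceeded every non-myelinating SC of the plate in 51 of 82 cells (plate 1) and 41 of 64 (plate 2). It did so in none of the 41 of the 146 cells that were nearest the limit of the rule. In each cell, M was the mean log2(CPM + 1) of Ncmap, Prx, Pllp, Cldn19, Fam178b and Kcnk1, and N was the same mean for Scn7a, Ncam1, Ptn, Lgals3, Ntrk3 and Rab3b, where CPM is the read count of a gene scaled to the total reads of its cell. A cell with M above N and Mfap5 under 100 CPM was an Mfap5-negative mSC. A cell with M above N and Mfap5 at 100 CPM or more was an Mfap5-positive mSC, and a cell with N above M was a non-myelinating (Remak) SC, nm(R)SC. The rule found 146 Mfap5-negative mSCs among 623 cells that held at least 1500 detected genes and 20000 reads, out of 768 sequenced. There were 82 of 304 cells in plate 1 (27.0%, 95% exact binomial interval 22.1 to 32.3) and 64 of 319 in plate 2 (20.1%, 15.8 to 24.9), a mean of 23.5% ± 4.89 (SD, n = 2 plates). The other cells were 79 and 19 Mfap5-positive mSCs and 143 and 236 nm(R)SCs.

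All cells came from 1 condition. Sciatic nerves of 60-day-old mice (P60) were dissociated with enzymes, and single cells were sorted for enhanced yellow fluorescent protein (eYFP) across the whole SC gate into a pair of 384-well plates, each from other animals, with the sexes pooled, and were sequenced by the full-length Smart-Seq2 method. All mice were P0Cre:ReYFP and βAct-DsRed on the C57bl/6J background, so that eYFP marks cells in which this SC-lineage Cre was active at some time, and dsRed is made in all cells. Neither the animal nor the sex of a single cell was recorded, and no cell belonged to a treated or mutant group.

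Myelinating SCs wrap a single axon in a sheath of compact myelin, whose membrane holds proteins such as Pmp22 and Mbp, while channels of non-compact cytoplasm lined by Mag and Gjb1 keep the sheath connected to the cell body. The sheath is rich in cholesterol and galactolipids, much of which the cell makes itself under transcription factors such as Sox10, Egr2 and Pou3f1. Non-myelinating Remak SCs surround several thin axons without myelin and keep surface proteins of immature SCs such as Ngfr, Ncam1 and L1cam.

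**Figure D1:**
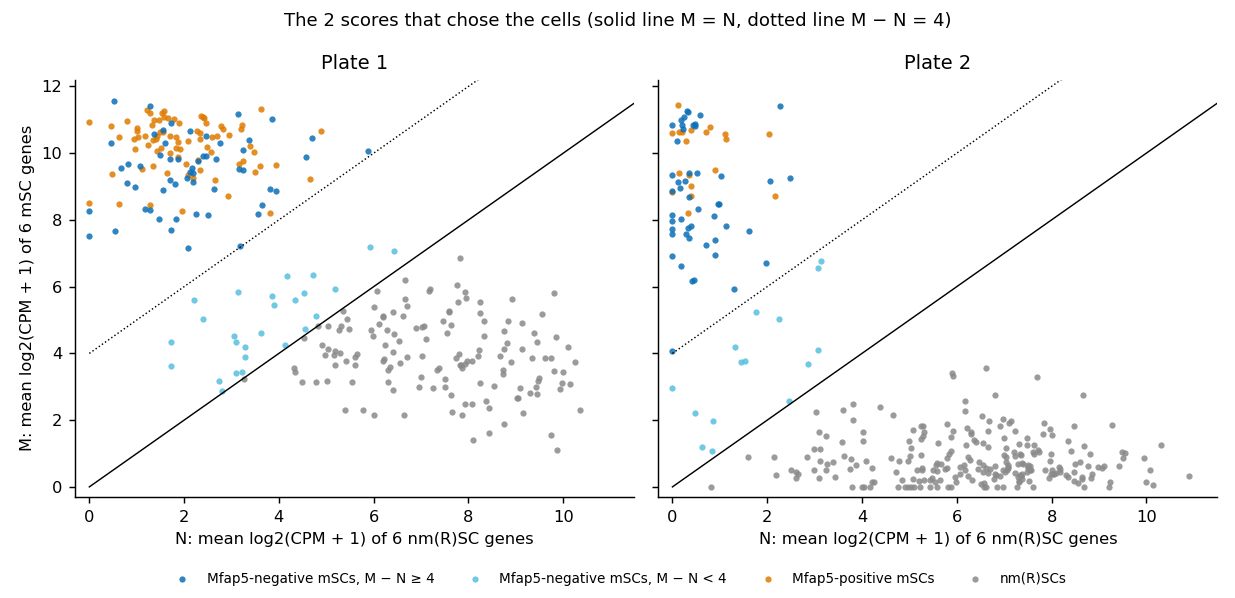
Each point is 1 of the 623 kept cells, with N (mean log2(CPM + 1) of 6 nm(R)SC genes) on the x axis and M (the same for 6 mSC genes) on the y axis, 1 panel per plate. Above the solid line (M = N) lie the 146 Mfap5-negative mSCs in both shades of blue and the Mfap5-positive mSCs in orange; the 41 light blue cells lie under the dotted line at M − N = 4, where there is no Mfap5-positive cell.

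Cells close to the limits were few for Mfap5 and more numerous for M − N. Among Mfap5-negative mSCs no read of Mfap5 was found in 22 of 82 cells of plate 1 and in 61 of 64 of plate 2, and the highest levels were 98.2 and 75.8 CPM in plate 1 and 2.18 and 1.12 CPM in plate 2. The lowest Mfap5-positive cells held 108 and 160 CPM in plate 1 and 424 and 825 CPM in plate 2, and the medians of that class were 2291 and 2951 CPM. The difference M − N had its median at 6.33 in plate 1 and 7.36 in plate 2, but 12 and 4 cells were under 1, and the smallest values were 0.0762 and 0.134. Just outside, the nm(R)SCs nearest to the line had M − N of -0.0130 and -0.702.

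The label was checked against 7 compact myelin genes, among them Pmp22, Mbp, Pmp2, Mal and Cd9, of which none is in the rule. After the spread of M − N was seen, the cells were divided at 4, into 105 cells at 4 or more (high-margin, 56 and 49 in the plates) and 41 below (low-margin, 26 and 15). In plate 1 only 1 cell lay from 3 to 4, but in plate 2 there were 3 such cells and no gap at the limit, with 5 cells from 2 to 3 and 3 from 4 to 5. The summed level of the 7 genes exceeded that of every nm(R)SC of the same plate (highest 42420 and 41731 CPM) in 51 of 56 and 41 of 49 high-margin cells. It did so in 0 of 26 and 0 of 15 low-margin cells, and in 78 of 79 and 19 of 19 Mfap5-positive mSCs. Median sums were 93848 and 103191 CPM in high-margin cells, 13964 and 13889 CPM in low-margin cells, and 17700 and 19704 CPM in nm(R)SCs. By the same measure, 15 genes of non-compact myelin and the nodal region passed less often in plate 2 (highest nm(R)SC 7374 and 19086 CPM). Their sum was above every nm(R)SC in 49 of 56 and 6 of 49 high-margin cells, and in 1 of 26 and 0 of 15 low-margin cells. It was so in 18 of 79 and 1 of 19 Mfap5-positive mSCs. The name mSC therefore held for most of the high-margin cells by compact myelin. By the second list most high-margin cells of plate 2 did not exceed the highest nm(R)SC, but the medians were apart. They were 10631 and 12163 CPM in high-margin cells, 3335 and 3856 CPM in low-margin cells and 3249 and 4333 CPM in nm(R)SCs. In plate 2 the quartiles were 9066 and 16141 CPM in high-margin cells and 2573 and 6266 CPM in nm(R)SCs. The low-margin cells met the rule without the myelin level of the class. Where stated, results are also given for high- or low-margin cells alone. No Mfap5-positive cell lay below 4.

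Mfap5-negative mSCs had a median of 148837 reads in plate 1 (20714 to 1553640) and 612095 in plate 2 (26474 to 3162520), with 3486 and 2470 detected genes. Thinned to 20000 reads, they held 2488 and 1407 genes, next to 2271 and 1520 in Mfap5-positive mSCs and 2339 and 1191 in nm(R)SCs. Mitochondrial transcripts took a median of 3.84% and 2.01% of reads, against 1.6% and 0.82% in Mfap5-positive mSCs and 2.77% and 1.29% in nm(R)SCs. Whether this bears on the comparisons was not tested. Markers of other nerve cells were low in most cells, apart from the fibrillar collagens described later. Sums of endothelial, immune, neuron, adipocyte and perineurial markers all had a median of 0 CPM in both plates. The highest cell was at 710.8 and 378 CPM for endothelial, 229 and 294 CPM for immune, 590 and 1230 CPM for perineurial and 16.5 and 2.97 CPM for neuron markers. Pericyte and smooth muscle markers had medians of 4.64 and 0 CPM and highest cells at 869 and 1659 CPM, and the 4 cells over 1000 CPM were among the 15 low-margin cells of plate 2. Among the defining markers, Cdh5, Cd300lg, C1qa, C1qb, Cd3e, Cd79a, Rbfox3, Nefl, Adipoq, Plin1, Cidec, Rgs5 and Myh11 were at 0.

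The comparisons below are descriptions, with no p-value. The classes were defined by the expression of the same cells, so genes were compared by the log2 ratio of CPM + 1 of counts summed per class and plate, given as mean ± SD (n = 2 plates). A gene was counted as higher or lower when it differed 4-fold or more in the same direction in both plates and reached 50 CPM in the higher class of both. The 13 genes of the rule were left out of all counts.

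Of the 7 markers given for these cells, Emid1, Fxyd6 and Csrp2 are outside the rule. Emid1 (ENSMUSG00000034164, GRCm38 chr11:5106265-5152257, minus strand) encodes a secreted matrix protein with an EMI domain. Its summed level was 1017 CPM in plate 1 and 1342 CPM in plate 2 in Mfap5-negative mSCs, 219 and 140 CPM in Mfap5-positive mSCs, and 5.49 and 0.311 CPM in nm(R)SCs. The ratio was 8.65 ± 1.91 against nm(R)SCs and 2.73 ± 0.73 against Mfap5-positive mSCs. After thinning to 20000 reads, an Emid1 read was found in 63 of 82 cells (76.8%, 66.2 to 85.4) and 48 of 64 cells (75%, 62.6 to 85), against 19 of 143 (13.3%) and 3 of 236 (1.27%) nm(R)SCs, whose median depths before thinning were 203655 and 453376 reads. Single cells ranged from 0 to 4418 CPM in plate 1 and from 0 to 3622 CPM in plate 2, so the classes overlapped. The Emid1 signal sat mainly in high-margin cells, where 52 of 56 and 41 of 49 were at 100 CPM or more, against 4 of 26 and 4 of 15 low-margin cells and 27 of 79 and 6 of 19 Mfap5-positive mSCs.

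Fxyd6 (chr9:45370185-45396159, plus strand), a regulator of the sodium pump, had a median of 2030 and 2773 CPM over high-margin cells and 4.49 and 0 CPM over low-margin cells. Mfap5-positive mSCs lay between, with 486 and 405 CPM, and nm(R)SCs were at 8.86 and 0 CPM. The gene's sums gave a ratio of 6.08 ± 1.18 against nm(R)SCs but 1.44 ± 0.52 against Mfap5-positive mSCs, which did not reach 4-fold.

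Csrp2 (chr10:110919789-110939622, plus strand), a LIM-domain protein of the cytoskeleton and nucleus, behaved differently from Fxyd6, since it was also present in low-margin cells. Median levels were 1742 and 540 CPM in high-margin cells and 405 and 200 CPM in low-margin cells, whereas Mfap5-positive mSCs had 7.56 and 0 CPM and nm(R)SCs 7.11 and 0 CPM. Its ratio was 4.79 ± 0.96 against nm(R)SCs and 3.82 ± 0.56 against Mfap5-positive mSCs. The 4 given markers inside the rule serve only as description, with median levels in Mfap5-negative mSCs of 2441 and 3169 CPM for Ncmap, a non-compact myelin protein, and 2260 and 3117 CPM for Pllp, the myelin proteolipid plasmolipin. Cldn19, a claudin of tight junctions, had 1283 and 1146 CPM, and Prx, the scaffold periaxin, 1361 and 1538 CPM.

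**Figure D2:**
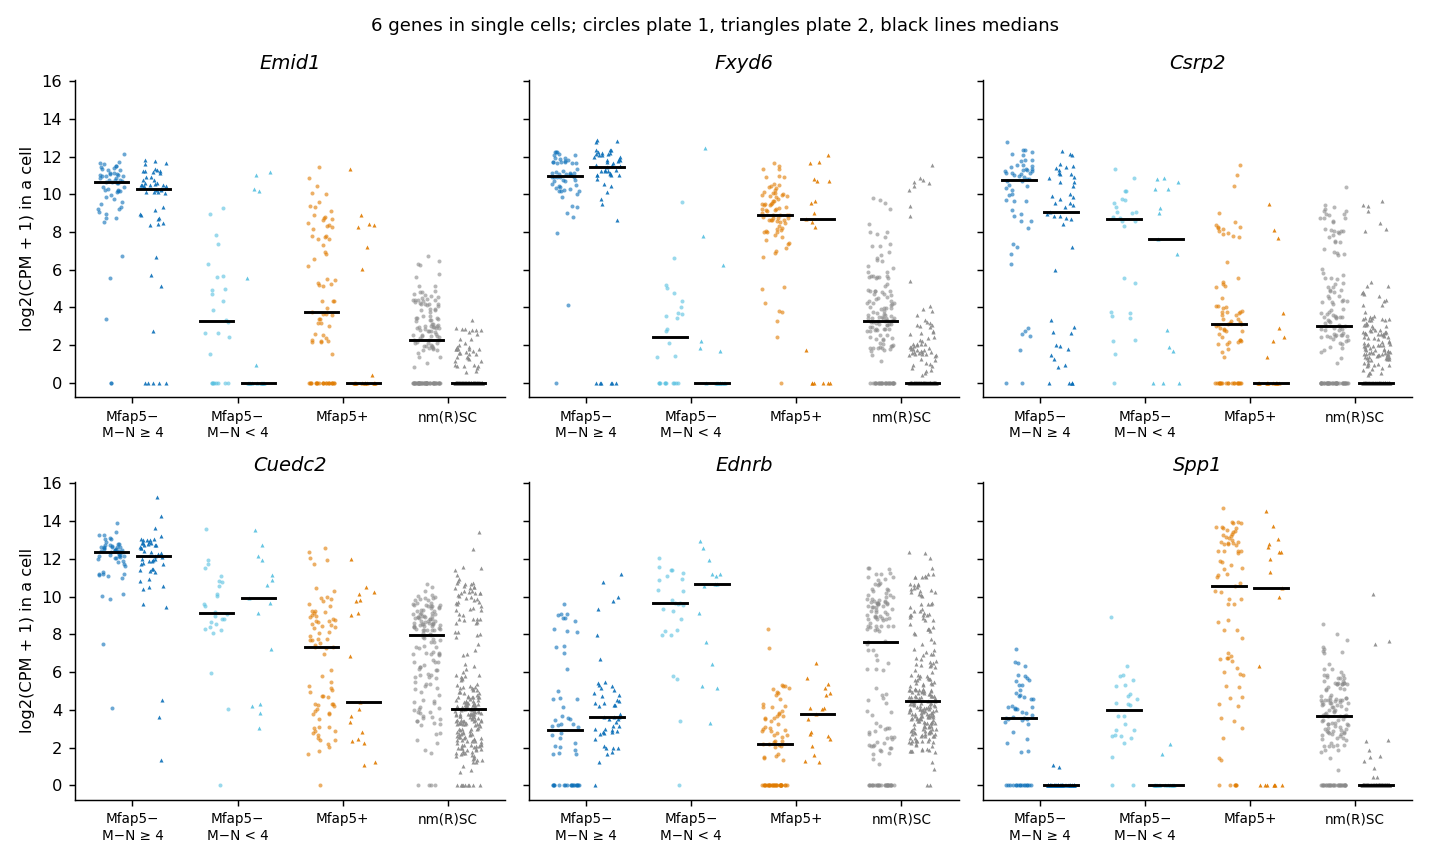
Each point is the log2(CPM + 1) of a single cell for Emid1, Fxyd6, Csrp2, Cuedc2, Ednrb and Spp1 on the y axis, by class on the x axis, with circles for plate 1, triangles for plate 2 and black lines at the medians. Emid1 and Fxyd6 are high in high-margin cells (medians 1576 and 1262 CPM for Emid1), Ednrb in low-margin cells (806 and 1600 CPM), and Spp1 in Mfap5-positive mSCs (1538 and 1420 CPM).

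Against nm(R)SCs, 3698 genes were considered. In Mfap5-negative mSCs 96 of them were higher (2.6%) and 164 lower (4.43%), and the median ratio over all considered genes was -0.06. The shares of the lists below were not read against these, since the rule used the same contrast. Besides Emid1, Fxyd6 and Csrp2, the genes with the largest ratios included transporters and lipid enzymes. Slc36a2, a proton-coupled amino acid transporter, was at 656 and 1782 CPM against 18.2 and 5.35 CPM (6.62 ± 2.14). Fa2h, which hydroxylates the fatty acids of myelin galactolipids, was at 386 and 824 CPM against 9.95 and 6.76 CPM (5.94 ± 1.13). Both genes were more abundant in the Mfap5-positive mSCs of plate 1, with 2114 CPM of Slc36a2 and 1033 CPM of Fa2h.

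Other genes of this set have roles outside lipid synthesis. Cdh1, the adhesion protein E-cadherin of SC autotypic junctions, was at 209 and 111 CPM against 6.02 and 0.0662 CPM (5.81 ± 1.29). Gsdme, which encodes gasdermin E, a pore-forming protein, was at 470 and 411 CPM against 14.4 and 4.33 CPM (5.60 ± 0.95). Pmp2, the lipid-binding myelin protein P2, whose exons overlap Gm37389, was at 426 and 228 CPM against 11.1 and 6.37 CPM (5.05 ± 0.12). Arhgap19, a GTPase-activating protein, was at 542 and 207 CPM against 17.8 and 0.529 CPM (5.97 ± 1.58).

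For the other named genes the nm(R)SC level rested on few reads, so only levels are given. Kank1 was at 246 and 53.4 CPM against 1.43 and 0.0199 CPM, and Slc9a3, a sodium-proton exchanger, at 70.3 and 55.5 CPM against 0.372 and 0.0265 CPM. Cmtm2b, a member of the MARVEL family, was at 116 and 58.8 CPM against 2.10 and 0 CPM. Sept3, a septin, was at 66.6 and 81.3 CPM against 1.38 and 0.00662 CPM, with 449 and 554 CPM in Mfap5-positive mSCs. These 4 fell under the minimum of 50 CPM once each class and plate had lost its cell richest in reads of the gene, and Kank1 did among high-margin cells alone, while their ratios stayed over 4-fold. Of the 96 higher genes, 95 were also higher over the high-margin cells alone, where 122 of 3674 genes were higher. The high-margin cells are 105 of the 146 and gave most reads of the sums, so this overlap was largely fixed in advance.

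The genes lower than in nm(R)SCs included secreted and surface proteins. Clu, which encodes clusterin, was at 2.40 and 0.256 CPM against 305 and 776 CPM, and the cytochrome P450 Cyp2d22 at 1.88 and 0.116 CPM against 323 and 692 CPM. Among them were the complement components C3, at 4.39 and 0.302 CPM against 306 and 392 CPM, and C4b, at 10.7 and 5.39 CPM against 585 and 1292 CPM (-6.66 ± 1.42). F3, tissue factor, was at 8.50 and 0.232 CPM against 525 and 1927 CPM (-8.20 ± 3.41). The wide SD of F3 shows how far the plates differed, with the larger ratio in plate 2. Low levels of genes of the other class were more common in plate 1, also for genes of the rule. Median N in Mfap5-negative mSCs was 2.46 in plate 1 and 0.472 in plate 2, and median M in nm(R)SCs was 3.89 and 0.629. Plate differences in ratios such as that of F3 need not be particular to the gene, and their source was not tested. Cdh2, N-cadherin, was at 1.48 and 0.186 CPM against 181 and 162 CPM (-6.65 ± 0.64).

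Gpnmb, a membrane glycoprotein, had 244 and 340 CPM in nm(R)SCs and 1.77 and 0 CPM in Mfap5-negative mSCs, while Fcgr2b, an inhibitory Fc receptor, had 113 and 147 CPM and 0.570 and 0 CPM. The corresponding levels were 67.7 and 131 CPM and 0.171 and 0 CPM for Hrct1, and 119 and 181 CPM and 1.25 and 0.0232 CPM for Plac9a. A list of 10 genes of non-myelinating and immature SCs had 9 considered, of which 7 were lower and none higher, with a median ratio of -4.73. Over high-margin cells 8 of 9 were lower (median -5.93). Over low-margin cells it was 6 of 9 (median -3.99), under a stricter rule stated below. The median sum of the 10 genes was 48.3 and 12.5 CPM in high-margin cells, but 1271 and 1990 CPM in low-margin cells. In nm(R)SCs it was 2185 and 1372 CPM, so in plate 2 the low-margin median was above that of nm(R)SCs. Ngfr, the low-affinity neurotrophin receptor, was at 22 and 2.67 CPM against 102 and 94.9 CPM (-3.43 ± 1.80). L1cam, an adhesion molecule whose exons overlap Arhgap4, was at 15.7 and 0.325 CPM against 258 and 192 CPM (-5.57 ± 2.28). Emp1, an epithelial membrane protein, gave -5.26 ± 0.91, Chl1, an L1-family adhesion molecule, -4.73 ± 2.75, and Itga1, an integrin that overlaps Gm49395, -4.73 ± 2.57. Gfap, the glial intermediate filament, was at 0.114 and 0 CPM against 50.9 and 57.7 CPM. Ncam1, also typical of these cells, is part of the rule and was not counted.

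Compact myelin genes were higher than in nm(R)SCs in 4 of 7 cases (median ratio of the list 2.33). Over low-margin cells alone 0 of 6 considered were higher or lower (median -0.49), under a stricter rule stated below. Over all 3648 genes considered there, 0.192% were higher and 4.25% lower, so these counts are near the shares over all genes. Pmp22, a tetraspan myelin protein, was at 22659 and 36189 CPM against 4677 and 4833 CPM (2.59 ± 0.44), and Mbp, which holds the cytoplasmic membrane faces together, reached 2.33 ± 0.37. Cd9 and Mal were under 4-fold, with ratios of 0.55 and 0.60. Per kilobase of exon, Pmp22 had the highest summed level of the ranked genes in Mfap5-negative mSCs, 12500 CPM per kb. The ranking left out the genes of the rule and genes with Gm, Rik or -ps names or no symbol. Also high were the mitochondrial mt-Cytb (8558), mt-Nd1 (7061) and mt-Co1 (5209) and the immediate early gene Fos (6284), and further down B2m, the light chain of MHC class I (4110), mt-Nd4l (4027), the ubiquitin gene Ubb (3812) and Cd9 (3273).

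In the list of non-compact myelin and the nodal region, 4 of 13 considered genes were higher and 1 lower (median 1.65). Over low-margin cells alone 0 of 5 were higher and 1 was lower, Mag (median -2.11), beside the same shares over all genes. Gjb1, the gap junction protein connexin 32, was at 89.8 and 57.8 CPM against 3.11 and 2.45 CPM (4.28 ± 0.27), and Drp2, the dystroglycan-associated partner of periaxin, at 88.9 and 184 CPM against 8.65 and 0.0265 CPM (5.36 ± 3.02). Mpp6, a scaffold of the MAGUK family, gave 4.63 ± 0.46, and Cdh1 was the fourth. Cadm4, the SC adhesion molecule that faces the axon, was lower, at 38.3 and 10.9 CPM against 183 and 125 CPM (-2.82 ± 0.83).

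Lipid synthesis genes were higher than in nm(R)SCs in part. Of 19 considered cholesterol synthesis genes 4 were higher and none lower (median 1.63). Over high-margin cells alone 7 of 19 were higher, with Fdps, Cyp51 and Hsd17b7 added, beside 122 of all 3674 genes considered there. Over low-margin cells 0 of 9 were higher and 1 was lower, the desaturase Sc5d (median -0.91). Of all 3648 genes considered there 7 were higher (0.192%) and 155 lower (4.25%), so 0 of 9 higher is near the share over all genes. For low-margin cells the rule was stricter, as it had to hold also without the cell with the most reads of the gene. The counts for high- and low-margin cells are therefore not like for like. Among the 4 genes higher over all Mfap5-negative mSCs, the synthase Hmgcs1 was at 406 and 325 CPM against 98.3 and 59.9 CPM (2.23 ± 0.27). Mvd, the mevalonate decarboxylase, gave 4.09 ± 0.70 and the isomerase Idi1, which overlaps Gm48574, 2.6 ± 0.27. In the list of fatty acid and sphingolipid synthesis 4 of 13 were higher (median -0.04), namely Fa2h, Ugt8a (2.95 ± 0.21), which makes galactosylceramide, and the elongases Elovl1, which overlaps Cdc20 (2.88 ± 0.25), and Elovl6 (2.45 ± 0.62). Over low-margin cells 0 of 11 genes of this second list were higher and 3 were lower, Fasn, Fads2 and Sptlc2 (median -2.44). Transcription factors of myelination gave 2 higher of 9, Pou3f1 and Nab2, and over low-margin cells 1 of 8, Pou3f1. Sox10 was level with nm(R)SCs at 519 and 240 against 543 and 247 CPM (-0.05 ± 0.02). Egr2, the driver of the myelin program, was at 312 and 646 CPM against 114 and 49.7 CPM (2.56 ± 1.58), under 4-fold in plate 1.

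**Figure D3:**
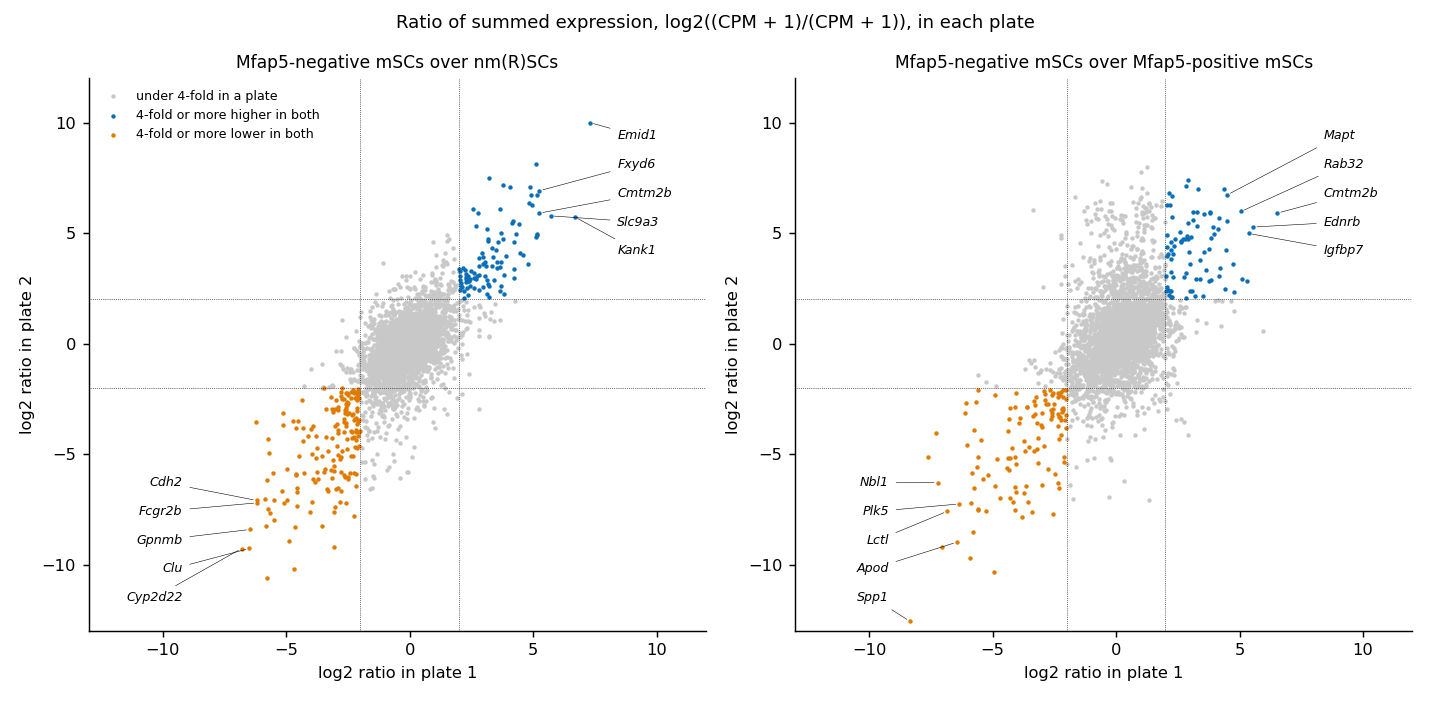
Each point is a considered gene, with its log2 ratio in plate 1 on the x axis and in plate 2 on the y axis, for Mfap5-negative mSCs over nm(R)SCs (left) and over Mfap5-positive mSCs (right). Coloured points differ 4-fold or more in the same direction in both plates, 96 and 164 genes on the left and 82 and 119 on the right.

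Against Mfap5-positive mSCs, 3440 genes were considered, 82 of them higher (2.38%) and 119 lower (3.46%) in Mfap5-negative mSCs, with a median ratio of 0.30 over all. Spp1, which encodes the secreted phosphoprotein osteopontin and overlaps Gm42793, showed the largest difference. It summed to 13.5 and 0.0930 CPM in Mfap5-negative and 4685 and 6670 CPM in Mfap5-positive mSCs (-10.46 ± 2.99). Spp1 was not uniform in the Mfap5-positive class either, since single cells there ran from 0 to a highest level of 26876 CPM, and 56 of 79 and 11 of 19 cells were at 100 CPM or more. Only 2 of 82 and 0 of 64 Mfap5-negative mSCs reached 100 CPM.

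Several other lower genes encode secreted proteins. Apod, apolipoprotein D, was at 23.6 and 2.28 CPM against 2138 and 1662 CPM (-7.71 ± 1.80). Nbl1, a secreted BMP antagonist, was at 0.856 and 1.19 CPM against 277 and 171 CPM (-6.76 ± 0.66). Ogn, the leucine-rich proteoglycan osteoglycin and the 1 gene considered from a list of 10 microfibril and proteoglycan genes, was at 311 and 285 CPM against 3818 and 2091 CPM (-3.24 ± 0.53). Ogn was at 100 CPM or more in 29 of 82 and 17 of 64 Mfap5-negative cells, against 76 of 79 and 18 of 19 Mfap5-positive mSCs, and the median Mfap5-negative cell was at 31.9 and 0 CPM.

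Where the Mfap5-negative level rested on few reads, levels alone are given. Pla2g7, a secreted phospholipase that degrades platelet-activating factor, was at 4.96 and 0.0697 CPM against 363 and 887 CPM. Lox, the collagen cross-linking lysyl oxidase, was at 4.68 and 0 CPM against 326 and 57.9 CPM, and fell under 50 CPM when the cell with the most reads of the gene was omitted. Plk5 was at 1.31 and 0 CPM against 187 and 152 CPM, and Lctl at 0.171 and 0 CPM against 133 and 192 CPM. Etnppl, which breaks down phosphoethanolamine, was at 0.228 and 0.0930 CPM against 70.3 and 162 CPM. Sptbn5, a beta spectrin, and Pla2g4b, a phospholipase, also belonged here, but they share their locus with Gm28042, so their reads cannot be told apart.

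No compact myelin gene passed 4-fold between the 2 mSC classes, and 5 of 7 had a negative and 2 a positive ratio (median -1.02). Their sum had a median of 68885 and 73465 CPM in Mfap5-negative and 135292 and 140599 CPM in Mfap5-positive mSCs. Pmp22 was lower in Mfap5-negative mSCs, at 22659 and 36189 against 79828 and 113614 CPM (-1.73 ± 0.12). Mbp was higher, with a ratio of 1.07 ± 0.64. Over the high-margin cells alone both ratios kept their directions, with -1.39 ± 0.12 for Pmp22 and 1.39 ± 0.41 for Mbp. In the cholesterol synthesis list 0 of 19 genes were apart (median -0.00), and in that of fatty acid and sphingolipid synthesis 1 of 11 was lower (median -0.59), the elongase Elovl7 at 33.0 and 16.5 against 302 and 343 CPM. Egr2 was near even, at 312 and 646 against 337 and 643 CPM.

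A short set of genes was higher in Mfap5-negative mSCs than in both other classes, 12 of the 96 and 82 genes (12.5% and 14.6%). Pou3f1, known as Oct6 and active before the onset of myelination, was at 445 and 88.6 CPM against 20.003 and 15.2 CPM in Mfap5-positive mSCs and 56.9 and 4.99 CPM in nm(R)SCs (3.44 ± 1.37 and 3.43 ± 0.68). Nab2, a cofactor of Egr2 that overlaps Nemp1 and Stat6, was at 313 and 199 CPM against 38.7 and 15.5 CPM and 29.4 and 12.1 CPM (3.29 ± 0.44 and 3.65 ± 0.40). Both hold with high-margin cells, since Pou3f1 was at 436 and 77.7 CPM and Nab2 at 433 and 196 CPM there.

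The other 10 of the 12 were Emid1, Csrp2, Cmtm2b, Gsdme, Phldb2, Cuedc2, Gypc, Cdkn1c, Dusp8 and Abhd3; Cuedc2, Gypc, Cdkn1c, Dusp8 and Abhd3 were picked after their values were seen. Cuedc2, which encodes a ubiquitin-binding CUE-domain protein and overlaps Fbxl15, was at 4828 and 4833 CPM against 405 and 274 CPM in Mfap5-positive mSCs and 324 and 313 CPM in nm(R)SCs. Its ratios were 3.85 ± 0.40 against Mfap5-positive mSCs and 3.92 ± 0.03 against nm(R)SCs. Single high-margin cells had a median of 5326 and 4473 CPM of Cuedc2, and 55 of 56 and 46 of 49 were at 100 CPM or more. Cdkn1c, a cyclin-dependent kinase inhibitor, was at 110 and 156 CPM against 9.55 and 19.6 CPM and 7.62 and 3.94 CPM. Gypc, a membrane glycoprotein of the cortical skeleton, was at 340 and 893 CPM against 44.9 and 29.9 CPM and 62.2 and 116 CPM.

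Other genes separated the 2 mSC classes but not Mfap5-negative mSCs from nm(R)SCs. Id2, an inhibitor of basic helix-loop-helix factors from the list of negative regulators of myelination, was at 648 and 254 CPM against 75.8 and 48.5 CPM in Mfap5-positive mSCs (2.72 ± 0.50), and 489 and 155 CPM in nm(R)SCs. That list had 1 of 5 genes higher with a median of 2.53, and Jun, a negative regulator of myelination, gave 2.53 ± 1.33. Ntrk2, the receptor TrkB, was at 97.7 and 137 CPM against 9.01 and 0.0709 CPM, the 1 of 6 axon signal receptors that met the rule, and stood at 292 and 341 CPM in nm(R)SCs. Ednrb, the endothelin receptor B, was at 364 and 427 CPM against 6.77 and 10.1 CPM (5.41 ± 0.20), with 398 and 267 CPM in nm(R)SCs. Ppic, cyclophilin C, was at 281 and 195 CPM against 14.5 and 2.76 CPM (4.94 ± 1.07). Mapt, which encodes tau, was at 327 and 112 CPM against 13.6 and 0.0709 CPM.

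How far this set rests on the low-margin cells differed by gene. Of the 82 genes higher than in Mfap5-positive mSCs, 54 (65.9%) were also higher over high-margin cells alone, where 66 of 3390 genes were higher (1.95%) and 117 lower (3.45%). Of the 119 lower genes, 103 (86.6%) were lower there. Part of such overlap is given in advance, since high-margin cells gave most reads of the Mfap5-negative sums. Mapt was at 369 and 72.6 CPM in high-margin and 241 and 389 CPM in low-margin cells. Rab32, a small GTPase of organelle transport, was at 126 and 97.8 CPM over all Mfap5-negative mSCs but at 40.3 and 50.5 CPM over high-margin and 306 and 429 CPM over low-margin cells. Igfbp7, a secreted IGF-binding protein that overlaps Polr2b, was at 72.3 and 49.8 CPM in high-margin and 848 and 310 CPM in low-margin cells. Rab32, Igfbp7, Adam23, Cnksr2 and Lrrtm4 did not meet the rule with high-margin cells alone. Cmtm2b, Igfbp7, Adam23, Cnksr2, Phldb2 and Lrrtm4 did not meet it without the cell with the most reads of the gene in each class and plate. In all these cases the minimum of 50 CPM was missed and the ratio stayed over 4-fold.

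Of 15 considered immediate early and heat-shock genes, 1 was higher than in Mfap5-positive mSCs, 11 had a positive and 4 a negative ratio (median 1.26). The 18 genes summed to a median of 15714 and 30157 CPM in Mfap5-negative mSCs, 5109 and 12983 CPM in Mfap5-positive mSCs, and 11722 and 5264 CPM in nm(R)SCs. The median was 14344 and 34589 CPM in high-margin cells and 19844 and 9637 CPM in low-margin cells. Btg2, an antiproliferative early gene, was the 1 that met the rule, at 653 and 2294 against 145 and 443 CPM (2.27 ± 0.14). Over high-margin cells alone 0 of 15 met it (median 0.90), as Btg2, at 501.5 and 2501 CPM, was under 4-fold in plate 1. Fos, a subunit of the factor AP-1, had a ratio of 1.33 ± 0.13 and a median per cell of 9475 CPM in plate 1 and 20574 CPM in plate 2, against 3080 and 4694 CPM. Against nm(R)SCs none of 16 was higher, and the chaperone gene Hspa1a, which overlaps Gm20481, was lower at 17.1 and 63.6 against 125 and 298 CPM. Cells were held for enzymatic digestion before sorting, and the part of that step in these levels was not tested.

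**Figure D4:**
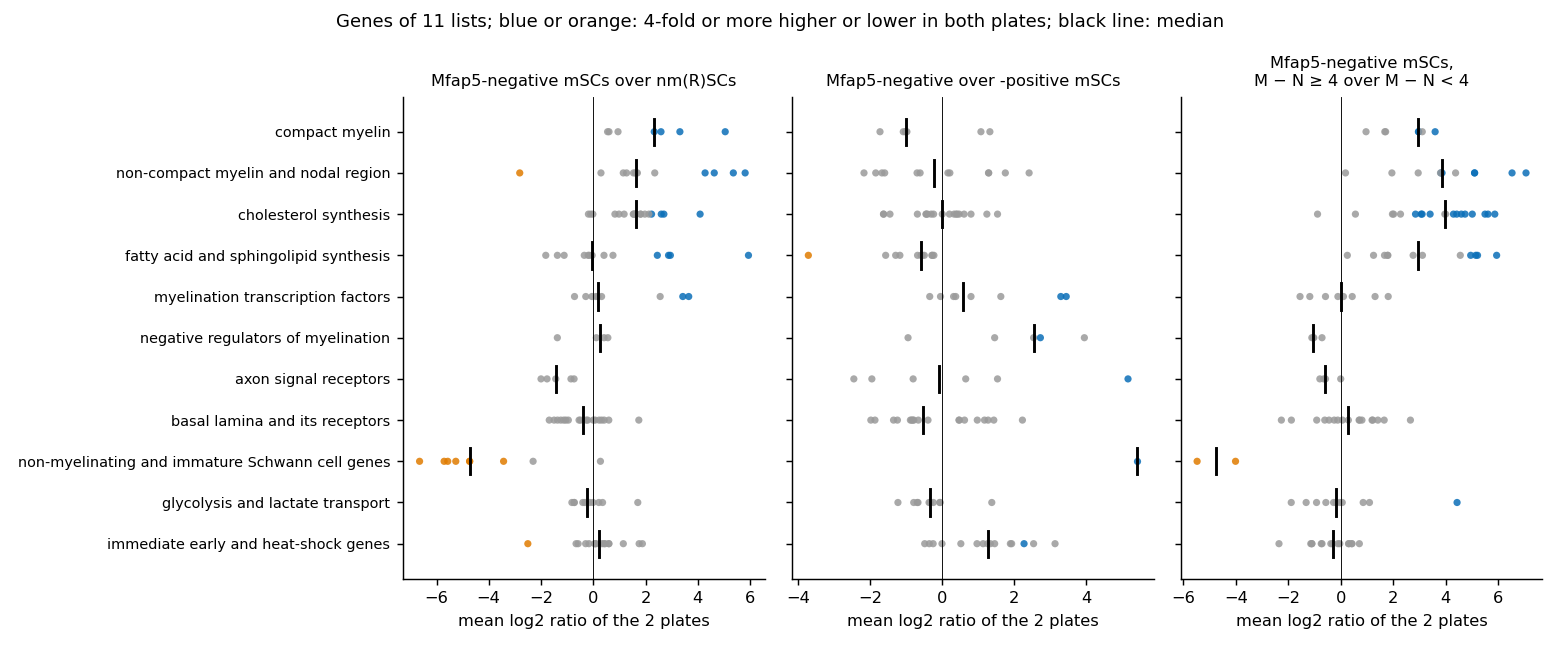
Each point is a considered gene of 11 lists (rows), with the mean log2 ratio of both plates on the x axis, for Mfap5-negative mSCs over nm(R)SCs, over Mfap5-positive mSCs, and for high- over low-margin cells. Blue and orange genes met the 4-fold rule and black lines are list medians, which for cholesterol synthesis were 1.63, -0.00 and 3.96.

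High-margin cells had higher levels of most cholesterol synthesis genes than low-margin cells. Of 3406 genes considered 127 were higher (3.73%) and 41 lower (1.2%) in high-margin cells, where the 4-fold rule had to hold also without the cell with the most reads of the gene in each class and plate, and the median over all was 0.03. The division used expression of the same cells, so these values too are a description. In the cholesterol list 12 of 19 genes were higher in high-margin cells and none lower (median 3.96). Nsdhl, a sterol dehydrogenase, was at 293 and 234 CPM against 4.93 and 2.42 CPM (5.87 ± 0.33), and Msmo1, a sterol methyl oxidase, at 1004 and 911 CPM against 172 and 102 CPM (2.85 ± 0.43). Fdft1, squalene synthase, whose exons overlap Ctsb, gave 3.10 ± 0.31.

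Some genes of myelin and its other lipids were also higher in high-margin cells. Fatty acid and sphingolipid synthesis had 4 of 12 genes higher (median 2.93), with Ugt8a at 354 and 251 CPM against 7.92 and 1.67 CPM (5.94 ± 0.88) and Fasn, the fatty acid synthase, at 136 and 102 CPM against 5.98 and 1.12 CPM (4.95 ± 0.92). In non-compact myelin 6 of 11 were higher (median 3.86), among them Mag, the adaxonal sialic acid-binding glycoprotein, at 872 and 1097 CPM against 30.1 and 0.744 CPM. Compact myelin had 3 of 7 higher, among them Pmp22 (3.59 ± 0.20) and Mbp (2.97 ± 0.04). Ogn was at 455 and 326 CPM against 11.6 and 0.186 CPM, so the Ogn reads of Mfap5-negative mSCs lay almost all in high-margin cells.

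On the other side, Ednrb was at 950 and 2624 CPM in low-margin and 83.3 and 113 CPM in high-margin cells (-4.01 ± 0.73). Sema3e, a secreted semaphorin, gave -5.47 ± 1.52, and Cspg4, the proteoglycan NG2, gave -3.15 ± 0.20. Cd44, the hyaluronan receptor, chosen here after its values were seen, was at 309 and 550 CPM in low-margin, 15.7 and 13.9 CPM in high-margin cells and 406 and 274 CPM in nm(R)SCs. Ednrb was at 100 CPM or more in 22 of 26 and 11 of 15 low-margin cells and in 13 of 56 and 7 of 49 high-margin cells.

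Low-margin cells also differed from nm(R)SCs. Here too the 4-fold rule had to hold also without the cell with the most reads of the gene in each class and plate. Leaving out a cell can take more from the few low-margin cells than from the nm(R)SCs, so it bears unequally on higher and lower counts. Of 3648 genes 155 were lower in low-margin cells than in nm(R)SCs (4.25%). Of these, 82 were among the 164 lower over all Mfap5-negative mSCs (52.9% of the 155). Cyp2d22, Gpnmb, Clu, Cdh2, Fcgr2b, Hrct1 and Gfap belonged to the 155. Higher than in nm(R)SCs were 7 (0.192%), namely Gsdme, Pou3f1, Nrep, Csrp2, Arhgap19, Nkd1 and Rasal2, and 6 of the 7 were also among the 96 of the whole class. These 7 were named after their values were seen. Pou3f1 was at 465 and 165 CPM in low-margin cells, next to 436 and 77.7 CPM in high-margin cells, and Csrp2 was at 498 and 826 CPM next to 1750 and 1064 CPM. Nrep, which encodes the neuronal regeneration-related protein P311, was level, at 760 and 629 against 673 and 669 CPM. Nkd1, an inhibitor of Wnt signalling, ran the other way, with 388 and 1132 CPM in low-margin and 122 and 210 CPM in high-margin cells. Rasal2, a Ras GTPase-activating protein, was at 771 and 829 CPM in low-margin, 3082 and 1740 CPM in high-margin cells and 180 and 123 CPM in nm(R)SCs.

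Of 3 considered fibroblast markers 0 met the 4-fold rule between the margins. The summed level of 9 fibroblast markers had a median of 4787 and 1344 CPM (410.7 to 12433 and 50.8 to 7877) in low-margin cells, 1287 and 512 CPM (9.01 to 7119 and 8.75 to 4378) in high-margin cells and 3029 and 1034 CPM in nm(R)SCs. It came mainly from the fibrillar collagens Col1a1, Col1a2 and Col3a1. Col1a2 was at 3143 and 1218 CPM in low-margin and 985 and 531 CPM in high-margin cells. The defining fibroblast marker Pdgfra was at 0.176 and 0 CPM and Dcn at 66.5 and 0.558 CPM in low-margin cells, and Cd34 was at 0 in both plates. Against Mfap5-positive mSCs Col3a1 was higher over all Mfap5-negative mSCs, at 536 and 300 against 74.5 and 70.9 CPM (2.45 ± 0.54). Over high-margin cells alone, at 365 and 185 CPM, it was under 4-fold in plate 2 (1.82 ± 0.64).

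Single Mfap5-negative mSCs varied widely among themselves. Genes at 50 CPM or more in both plates were ranked by the SD of log2(CPM + 1) at 20000 reads. Genes of the rule and those with Gm, Rik or -ps names were left out. The 10 most variable included Fxyd6 (5.14 in both plates), Fdps, Msmo1, Ednrb, Dusp1, Aspa, Btg2, Slc36a2 and Fdft1. Of these, Fdps, Msmo1 and Fdft1 belong to cholesterol synthesis. Fdps, farnesyl diphosphate synthase, which overlaps Gm43738, ran from 0 to 5947 CPM in plate 1 and to 14394 CPM in plate 2, with medians of 244 and 7.43 CPM. The 20 cholesterol genes summed to a median of 3979 and 3558 CPM in high-margin cells, with a middle range of 1159 to 8725 CPM and 1544 to 8588 CPM. In low-margin cells the median was 805 and 1016 CPM, in Mfap5-positive mSCs 4623 and 5833 CPM and in nm(R)SCs 1401 and 1550 CPM. High-margin cells thus included some below the nm(R)SC median and 24 of 56 and 8 of 49 above the highest nm(R)SC of their plate. Aspa, the aspartoacylase that releases acetate from N-acetylaspartate, was at 100 CPM or more in 31 of 82 and 19 of 64 Mfap5-negative mSCs and in 109 of 143 and 159 of 236 nm(R)SCs. Dusp1, a MAP kinase phosphatase, overlaps Ergic1.

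**Figure D5:**
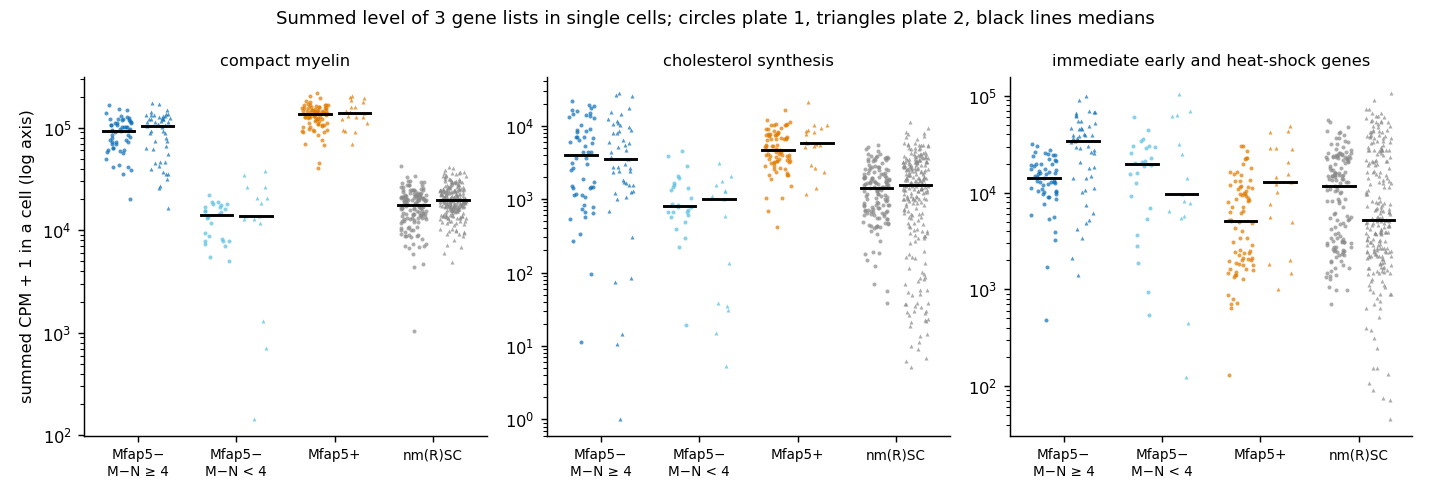
Each point is the summed CPM + 1 of a gene list in a single cell on a log y axis, by class on the x axis, with circles for plate 1, triangles for plate 2 and black median lines. Compact myelin medians are apart between high-margin (93848 and 103191 CPM) and low-margin cells (13964 and 13889 CPM), but single cells overlap. The lowest high-margin cells are at 20257 and 16327 CPM and the highest low-margin cells at 22263 and 37945 CPM. Cholesterol synthesis spans the whole range within high-margin cells, and immediate early and heat-shock genes overlap between all classes.

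The plates, which hold cells of different mice, gave ratios of the same sign for 68.8% of considered genes against nm(R)SCs and 68.5% against Mfap5-positive mSCs. Between the plates, within Mfap5-negative mSCs, 382 of 4490 genes differed 4-fold or more also without the cell with the most reads of the gene, 286 higher in plate 1 (6.37%) and 96 in plate 2 (2.14%). The mitochondrial genes mt-Atp6 (405 and 0.744 CPM) and mt-Co3 (155 and 0.558 CPM) led these and were apart in nm(R)SCs too, at 299 and 0.443 CPM and 110 and 0.152 CPM. Mouse, sort and library preparation all differ between the plates and cannot be told apart.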

How the data were processed

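Smart-Seq2 counts of 768 single cells were used as the authors deposited them, as whole reads per gene and cell without normalisation or molecular identifiers. The submitters' processing notes name bcl2fastq, STAR 2.6.1c, featureCounts and GRCm38.p5, and the strand setting is not given in the sources used here. Gene symbols, positions, exon lengths and exon overlaps were taken from GENCODE M21 (GRCm38), which matched 25664 of 25700 genes. Each GEO sample is 1 cell, and the labels give the plate. The plate was the replicate (n = 2), since the animal of a cell is not recorded. Cells were sorted singly into wells and no doublets were called. No cell pair had identical counts.

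Cells were classed by the rule above. The members, gene lists and rules were chosen with earlier results of these data known. Counts were summed per class and plate, scaled to CPM and compared as log2 ratios with 1 CPM added, which understates the difference of low genes. No test was run, because classes were defined on the same expression values, and no p-value is given. Intervals are exact Clopper-Pearson at 95% and cover counting error only; without molecular identifiers reads are not independent molecules. Where no cell of a class held a read of a gene, the underlying share of such cells could still be up to about 3 divided by the number of cells. This limits cells with a read, not cells that express the gene.

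Genes outside the rule were named by a fixed rule: against nm(R)SCs the 12 higher and 10 lower with the largest smaller-of-2-plates ratio, against Mfap5-positive mSCs 10 and 10, the 10 highest per kilobase, the 10 most variable, list genes past the 4-fold rule with the 4 most abundant of each list, and the given markers. Genes with Gm or Rik names were counted but not named, and some genes that the rule picks are not reported here. Alternatives were thinning to 20000 reads, TMM scaling (edgeR 4.0.16), other limits and leaving out a plate or a cell. Python 3.11.15, numpy 2.4.6, scipy 1.17.1 and pandas 2.3.3 were used. The scripts' ratios were tested on simulated data.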

Additional observations from a re-analysis of the deposited data

How the results depend on the processing

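With only 2 plates the counts of genes are lists of size and direction, not of significance. Without the minimum of 50 CPM, 231 genes were higher and 599 lower than in nm(R)SCs, and 468 higher and 322 lower than in Mfap5-positive mSCs. With a 2-fold rule these were 255, 385, 441 and 308, and 1402 genes were apart between plates. Leaving out 1 plate gave 225 to 361 and 319 to 550 genes against nm(R)SCs and 328 to 846 and 288 to 607 against Mfap5-positive mSCs, since 1 plate then sufficed for the rule. A margin of 4, chosen after the data were seen, gave a share of 16.9%. All other alternatives kept each count within 1.5 times, with 81 to 124 genes higher and 136 to 235 lower than in nm(R)SCs, but not always the same genes. With cells thinned, 68 of the 96 and 117 of the 164 genes remained against nm(R)SCs, 45 of the 82 and 75 of the 119 against Mfap5-positive mSCs, and 144 of the 382 between plates. TMM moved all ratios by 0.09 and 0.19 against nm(R)SCs and by -0.20 and -0.26 against Mfap5-positive mSCs. Of 588 values of 42 named genes under 14 alternatives, 551 met the fold rule of that alternative, 37 did not and 0 changed direction. All 37 stayed over 4-fold in both plates and missed the minimum of 50 CPM. Dropping the minimum, the 2-fold rule and leaving out 1 plate only loosen the rule, so no value could be lost there. The 42 were also chosen for the largest ratios in these data, so the number kept is no measure of how stable other genes are. The shallower reads of plate 1 and the 19 Mfap5-positive mSCs of plate 2 limit genes near 50 CPM. Each ratio between classes was formed within a plate and so paired by plate, but no test of these pairs was run.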

Other observations

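Of 18 genes of the basal lamina and its receptors, none met the 4-fold rule in Mfap5-negative mSCs against nm(R)SCs (median ratio -0.38) or Mfap5-positive mSCs (-0.53). The same held for 10 considered genes of glycolysis and lactate transport, with medians of -0.23 and -0.35. Over all considered genes 2.6% were higher and 4.43% lower against nm(R)SCs, and 2.38% and 3.46% against Mfap5-positive mSCs. For lists of this size a count of 0 is near those shares and sets neither list apart. Pfkm, the muscle phosphofructokinase, was apart between the margins, at 58.0 and 88.6 CPM in high-margin and 10.4 and 0 CPM in low-margin cells.

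Cell cycle genes summed to a median of 101 CPM in plate 1 and 7.40 CPM in plate 2 of Mfap5-negative mSCs. A sum above 1000 CPM was reached by 3 cells, all low-margin cells of plate 1, out of 82 and 64, and by 23 of 143 and 8 of 236 nm(R)SCs.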
